A study of Mus musculus with 9 samples.

Results

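The angiopoietin-Tie system was described in bEnd.3 tumors through 6 genes taken by symbol: the ligands Angpt1, Angpt2 and Angpt4, the receptors Tek (also called Tie2) and Tie1, and Ptprb, which encodes the vascular endothelial phosphatase VE-PTP. All 6 were among the 24421 genes of the deposited count table, and 5 of them were among the 13901 genes with enough counts for testing, Angpt4 being the exception. bEnd.3 cells are mouse endothelial cells immortalized with polyoma middle T antigen, and they were grown as allografts in the flank of athymic Nu/Nu nude mice. Of the 9 tumors, 4 came from mice given vehicle (ethanol in buffered saline) and 5 from mice given R-propranolol, the enantiomer of propranolol with little activity at beta-adrenergic receptors, at 6 mg/kg per day on 5 days a week. All hosts were male and immunodeficient, treatment was intraperitoneal and began soon after the cells were injected, and a single cell line gave rise to every tumor. RNA of the whole tumor was sequenced, 1 library per tumor, so host vessels, stroma and blood cells contributed beside the bEnd.3 cells. The comparison asks which transcripts differed between treated and vehicle tumors.

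Angiopoietin signaling sets how quiet or how plastic a vessel is. Angpt1, made mainly by cells around the vessel, activates the tyrosine kinase Tek on endothelial cells and stabilizes the endothelium through Akt and through the exclusion of FOXO1 from the nucleus. Angpt2, made by endothelial cells themselves, competes for the same receptor and is known as a destabilizing, context-dependent ligand of sprouting vessels. Angpt4 is a less studied ligand of Tek. Tie1 binds no angiopoietin by itself with high affinity and modifies Tek signaling by pairing with it, and VE-PTP removes phosphate from Tek.

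A few facts of the libraries bear on every value. The vehicle libraries held 20599904 to 24949010 counts in genes, and the R-propranolol libraries 21084749 to 27852630. R-propranolol replicate 5 stood apart: the summed CPM (counts relative to TMM-scaled library totals) of 15 skeletal muscle genes was 204253 in it and between 8.59 and 471 in the other 8, and that of 10 adipocyte genes was 5791 against 155 to 491. R-propranolol replicate 2 stood apart in another way, with 9 fibroblast genes at 32332 CPM, against 17043 in replicate 5 and 6030 to 9653 in the other 7 tumors. Col3a1, Col1a1 and Col1a2 led that sum, with means of 5910, 2381 and 1065 CPM over 9 tumors. Replicates 2 and 5 were the 2 highest tumors for 7 of the 9 genes, against 18.9% of all genes tested. Pdgfra was at 258 ± 17.3 CPM in vehicle and 259 ± 26.1 CPM in R-propranolol tumors (SD). Every one of 15 pan-endothelial markers was counted in each tumor. Host vessels contributed to the same RNA, so these counts cannot show whether the injected cells were endothelial. The summed level of the 15 markers was 988 CPM in R-propranolol replicate 2, 801 in replicate 5 and 385 to 528 in the other 7. R-propranolol replicates 2 and 5 are therefore set beside the results below. Vehicle replicates 1 and 2 share a number in their titles, whose meaning the labels do not give, and were treated as distinct tumors.

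Both receptor genes lie on chromosome 4 of the mouse genome, and their promoters are shown because Tek and Tie1, although both are endothelial genes, did not vary together among these tumors. Tek (ENSMUSG00000006386) spans chr4:94739289-94874976 on the plus strand and Tie1 (ENSMUSG00000033191) spans chr4:118471191-118490061 on the minus strand, both in build GRCm38. The 250 bases before the RefSeq start of each gene are printed 5′ to 3′ on the gene's own strand (GRCm38.p6; chr4:94739039-94739288 for Tek and chr4:118489850-118490099 for Tie1, where the RefSeq start lies inside the gene span given above). Capitals mark the matches found to 5 short motifs, searched on both strands.
Tek: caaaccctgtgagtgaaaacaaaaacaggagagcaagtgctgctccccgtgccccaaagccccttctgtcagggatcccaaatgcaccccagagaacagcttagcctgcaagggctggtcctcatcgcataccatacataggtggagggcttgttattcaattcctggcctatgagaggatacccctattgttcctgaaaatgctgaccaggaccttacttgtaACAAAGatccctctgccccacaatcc
Tie1: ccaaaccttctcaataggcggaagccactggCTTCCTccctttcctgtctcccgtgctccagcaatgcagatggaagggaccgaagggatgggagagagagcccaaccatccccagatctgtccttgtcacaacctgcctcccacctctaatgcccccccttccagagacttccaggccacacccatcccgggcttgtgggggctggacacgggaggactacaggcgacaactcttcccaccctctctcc
In the Tek window the only match was the Sox motif ACAAAG, 26 bases before the start. In the Tie1 window the only match was the ETS motif AGGAAG, read on the opposite strand as CTTCCT and starting 219 bases before the start. Neither window held the GATA motif AGATAA, the forkhead motif GTAAACA or the TATA motif TATAAA. Of 32851 RefSeq promoter windows of this length, 29.5% held the ETS motif, 16.5% the Sox motif, 12.4% the TATA motif, 9.99% the GATA motif and 3.17% the forkhead motif. These are letter matches only. The third member with a window in the RefSeq table was Angpt4, with AGGAAG at 133 and 123 bases and TATAAA at 30 bases before its start, so 3 of the 6 members were matched.

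The members differed widely in abundance. Levels were compared per length, as the median over 9 tumors of CPM per kilobase of exon. Tie1 led at 35.8, followed by Angpt2 at 10.6. Ptprb at 1.14 and Tek at 1.12 were nearly level, and Angpt4 at 0.129 and Angpt1 at 0.0962 were close to the limit of detection. The order of Tie1 above Angpt2 held in 9 of 9 tumors, with a ratio between 2.09 and 4.64. Angpt2 lay above Ptprb in 8 of 9, the exception being R-propranolol replicate 5, where the ratio was 0.299. Ptprb lay above Tek in 4 of 9 tumors and Angpt4 above Angpt1 in 5 of 9, so neither of those pairs had a stable order, whereas Tek exceeded Angpt4 in 9 of 9.

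**Figure D1:**
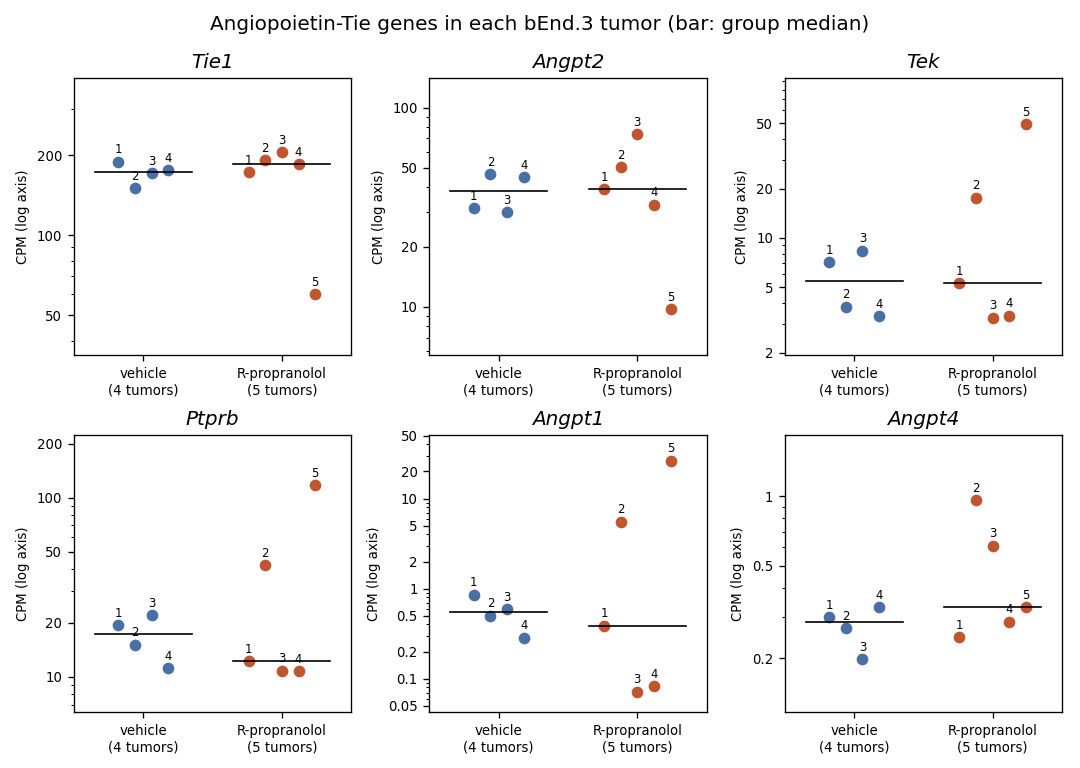
CPM on log axes of the 6 genes in each tumor, with 4 vehicle tumors in blue and 5 R-propranolol tumors in red, numbered by replicate, and bars at the group medians. Tek, Ptprb and Angpt1 were highest in R-propranolol replicates 5 and 2, whereas Tie1 and Angpt2 were lowest in replicate 5 (60.0 and 9.71 CPM).

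Between treatments, none of the 5 tested members passed an adjusted p of 0.05 (edgeR quasi-likelihood test, Benjamini-Hochberg over 13901 genes), and none passed an unadjusted p of 0.05. The background was 0% of all genes at the adjusted threshold and 2.30% (320 genes) at the unadjusted one, of which 2.01% were higher and 0.288% lower in R-propranolol tumors. A count of 0 of 5 is therefore what nearly all genes gave. The estimates of Angpt1, Tek and Ptprb were at least 2-fold higher, which was so for 10.4% of all genes, and the sign of each turned without R-propranolol replicates 2 and 5. DESeq2 called 2 genes of the whole table, neither of them a member. No member had groups that did not overlap, against 1.26% of all genes. In RNA of whole tumors, fewer cells of a type and less RNA per cell cannot be told apart.

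Angpt2, the endothelial ligand, was the abundant angiopoietin of these tumors (ENSMUSG00000031465, chr8:18690263-18741562, minus strand, GRCm38, lying within the locus of Mcph1 on the other strand with no shared exon base). Its level was 31.2, 46.3, 30.0 and 44.9 CPM in vehicle replicates 1 to 4. It was 39.1, 50.3, 73.7, 32.5 and 9.71 CPM in R-propranolol replicates 1 to 5. The groups overlapped, with replicate 3 as the highest and replicate 5 as the lowest of all 9 tumors. The means were 38.1 ± 8.69 (SD, n = 4) and 41.1 ± 23.5 CPM (SD, n = 5), and the log2 fold change was 0.11 (SE 0.47, 95% interval -0.95 to 1.17, edgeR adjusted p = 0.943). Without R-propranolol replicate 5 it was 0.36 (95% interval -0.24 to 0.96, edgeR adjusted p = 0.9995). The second interval comes from the fit that leaves out the tumor with the lowest Angpt2.

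Angpt1, the perivascular ligand that activates Tek, was scarce in most tumors and abundant in a pair of them (ENSMUSG00000022309, chr15:42424723-42676977, minus strand). Vehicle replicates 1 to 4 held 20, 13, 15 and 6 counts, or 0.861, 0.501, 0.595 and 0.285 CPM. R-propranolol replicates 1 to 5 held 11, 139, 2, 2 and 398 counts, or 0.388, 5.56, 0.0719, 0.0820 and 26.5 CPM. Within the treated group the level thus spanned from the lowest to the highest of all tumors, and replicates 2 and 5 lay above every vehicle tumor while replicates 3 and 4 lay below every one. Means were 0.560 ± 0.239 CPM (SD, n = 4) and 6.51 ± 11.4 CPM (SD, n = 5). The fitted log2 fold change was 3.52 (SE 1.69, 95% interval -0.31 to 7.35, edgeR adjusted p = 0.876). It was 1.41 without replicate 5 (95% interval -1.42 to 4.24, edgeR adjusted p = 0.9995). Replicates 2 and 5 were the 2 highest tumors, so leaving both out lowers the treated level by construction. Without them the estimate turned to -1.59 (95% interval -3.12 to -0.06, edgeR adjusted p = 0.944), an alternative added after the data had been seen. In those 7 tumors the vehicle counts of 20, 13 and 15 were the highest, so Angpt1 passed the filter there mainly through the group in which it was higher. Angpt1 shares 737 exon bases with the antisense gene Gm17473, which has no row in the table, and no source used here states whether counting used the strand, so reads of that partner cannot be told apart.

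Angpt4, the third ligand, was at the edge of detection (ENSMUSG00000027460, chr2:151911210-151945337, plus strand). Vehicle replicates 1 to 4 held 7, 7, 5 and 7 counts and R-propranolol replicates 1 to 5 held 7, 24, 17, 7 and 5 counts. Replicates 2 and 3 of the treated group held the most, and the other 7 tumors were within a few counts of each other. The means were 0.275 ± 0.0573 CPM (SD, n = 4) and 0.488 ± 0.300 CPM (SD, n = 5). It did not pass the filter on low counts, and in a fit without that filter its log2 fold change was 0.80 (SE 0.51, 95% interval -0.34 to 1.95, edgeR adjusted p = 0.780). Without R-propranolol replicate 2 it was 0.41.

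Tek, the signaling receptor, was highest in the same tumors as Angpt1. Its level was 7.10, 3.81, 8.37 and 3.32 CPM in vehicle replicates 1 to 4. It was 5.29, 17.6, 3.27, 3.36 and 49.3 CPM in R-propranolol replicates 1 to 5. Replicates 5 and 2 were the 2 highest tumors, and the other 3 treated tumors lay within or just under the vehicle range. The means were 5.65 ± 2.47 CPM (SD, n = 4) and 15.8 ± 19.7 CPM (SD, n = 5), and the medians, 5.46 and 5.29 CPM, were nearly equal. The fitted log2 fold change was 1.48 (SE 0.87, 95% interval -0.50 to 3.45, edgeR adjusted p = 0.876), 0.37 without replicate 5 (95% interval -0.97 to 1.72) and -0.51 without replicates 2 and 5 (95% interval -1.34 to 0.33), so its sign rested on those tumors.

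Tie1, the partner receptor, was the steadiest member in all but 1 tumor. It stood at 189, 150, 172 and 176 CPM in vehicle replicates 1 to 4. It stood at 173, 192, 205, 186 and 60.0 CPM in R-propranolol replicates 1 to 5. The first 4 treated tumors were inside or just above the vehicle range, and replicate 5 was far below it. Over the 8 tumors without replicate 5 the coefficient of variation of Tie1 was 9.20%, below the median of 12.8% over the genes tested. In those 8 tumors it was 33.0% for Angpt2, 59.0% for Ptprb, 74.7% for Tek and 177% for Angpt1. Over all 9 tumors it was 25.8% for Tie1, close to the median of 25.1% over the genes tested. The means were 172 ± 16.2 CPM (SD, n = 4) and 163 ± 58.9 CPM (SD, n = 5). The log2 fold change was -0.07 (SE 0.31, 95% interval -0.78 to 0.63, edgeR adjusted p = 0.941) with all tumors. Without replicate 5 it was 0.13 (95% interval -0.06 to 0.33, edgeR adjusted p = 0.9995), the narrowest interval of any member. That fit leaves out the tumor with the lowest Tie1, which raises the treated level and narrows its spread by construction.

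Ptprb, the phosphatase that acts on Tek, followed Tek closely (ENSMUSG00000020154, chr10:116275523-116389535, plus strand). Its level was 19.5, 15.1, 22.1 and 11.2 CPM in vehicle replicates 1 to 4. It was 12.2, 41.9, 10.8, 10.8 and 117 CPM in R-propranolol replicates 1 to 5. As for Tek, replicates 5 and 2 were the highest tumors, and the remaining 3 treated tumors were at the low end of the vehicle range or just under it. The means were 17.0 ± 4.81 CPM (SD, n = 4) and 38.6 ± 45.9 CPM (SD, n = 5), and the log2 fold change was 1.18 (SE 0.77, 95% interval -0.57 to 2.93, edgeR adjusted p = 0.876). It was 0.15 without replicate 5 (95% interval -0.93 to 1.23) and -0.59 without replicates 2 and 5 (95% interval -1.09 to -0.08, edgeR adjusted p = 0.944). Since replicates 2 and 5 were the 2 highest tumors for Ptprb, Tek and Angpt1, leaving them out lowers the treated level of these genes by construction, and the values without both are a description. Of the 7 tumors left, vehicle replicates 1 and 3 had the highest Tek and Ptprb, and their summed skeletal muscle markers were 471 and 458 CPM against at most 18.2 in the other 5. The part of muscle tissue in the difference was not tested.

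**Figure D2:**
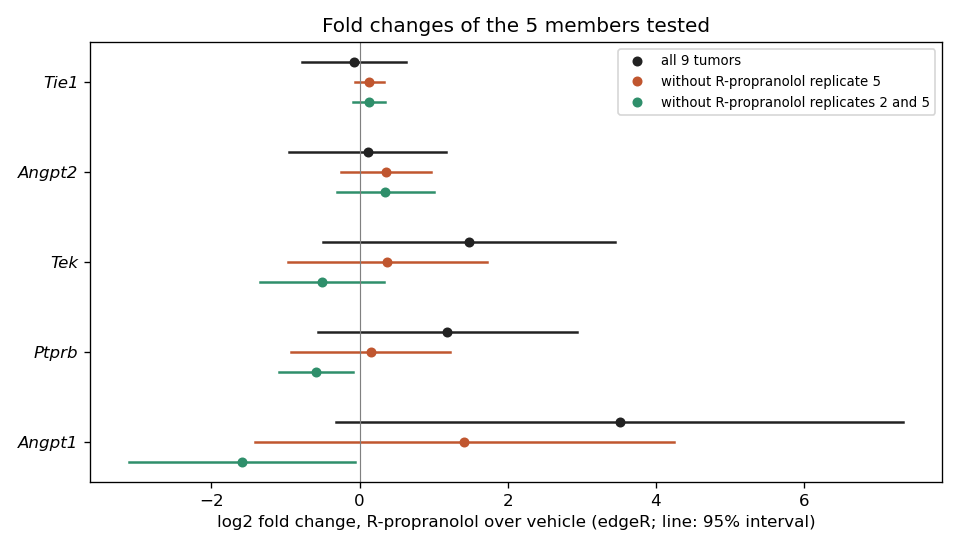
Log2 fold change of R-propranolol over vehicle for the 5 tested genes (edgeR, horizontal axis), with points at the estimate and lines over the 95% interval, for all 9 tumors, without R-propranolol replicate 5 and without replicates 2 and 5. The estimates of Angpt1 (3.52, 1.41 and -1.59), Tek and Ptprb moved from above to below 0 as those tumors were left out, while Tie1 and Angpt2 stayed near 0.

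An exact permutation test over every split of the 9 tumors into 4 and 5, which uses no model of the spread, gave no member an unadjusted p under 0.05. The difference of mean log2 CPM, R-propranolol minus vehicle, was 0.68 for Angpt1 (exact permutation p = 0.706), -0.13 for Angpt2 (p = 0.873), 0.73 for Tek (p = 0.5), -0.19 for Tie1 (p = 0.952) and 0.51 for Ptprb (p = 0.579). The smallest p these splits allow is 0.00794, and adjusted over all genes tested every one of the 5 was 1, as was every other gene. The adjusted values therefore cannot set the members apart from other genes. For Angpt4 the difference was 0.63 (exact permutation p = 0.214).

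Ratios between members within a tumor need no scaling of the libraries. The ratio of Tek to Tie1, in counts per kilobase of exon, was 0.0391, 0.0265, 0.0509 and 0.0197 in vehicle replicates 1 to 4. It was 0.0320, 0.0954, 0.0166, 0.0189 and 0.858 in R-propranolol replicates 1 to 5. Tie1 transcripts thus exceeded those of Tek at least 10-fold in 8 tumors and only slightly in replicate 5, which had both the highest Tek and the lowest Tie1. The mean log2 ratio was -4.97 ± 0.60 (SD, n = 4) and -4.04 ± 2.36 (SD, n = 5), a difference of 0.93 (exact permutation p = 0.579, adjusted over 4 ratios p = 0.802).

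The balance of the competing ligands, Angpt2 to Angpt1, was 51.1, 130, 71.0 and 222 in vehicle replicates 1 to 4. It was 142, 12.7, 1447, 560 and 0.517 in R-propranolol replicates 1 to 5. Angpt2 was the more abundant ligand in 8 of 9 tumors, and replicate 5 was the exception. The values of replicates 3 and 4 rest on 2 Angpt1 counts each, with exact binomial 95% intervals of 400 to 11953 and 155 to 4632 that cover counting error only. The log2 ratio differed between groups by -0.76 (exact permutation p = 0.802, adjusted over 4 ratios p = 0.802), and its SD was 4.61 in the treated group against 0.94 in the vehicle group.

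The ratio of Ptprb to Tek, by contrast, stayed within a narrow range. It was 0.968, 1.40, 0.931 and 1.19 in vehicle tumors and 0.815, 0.844, 1.17, 1.13 and 0.839 in R-propranolol tumors. The mean log2 ratio was 0.15 ± 0.27 (SD, n = 4) and -0.08 ± 0.26 (SD, n = 5), a difference of -0.22 (exact permutation p = 0.262, adjusted over 4 ratios p = 0.802). Angpt2 to Tek ranged from 4.57 to 17.2 in vehicle tumors and from 0.251 to 28.8 in R-propranolol tumors, and the log2 ratio differed by -0.87 (exact permutation p = 0.683).

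**Figure D3:**
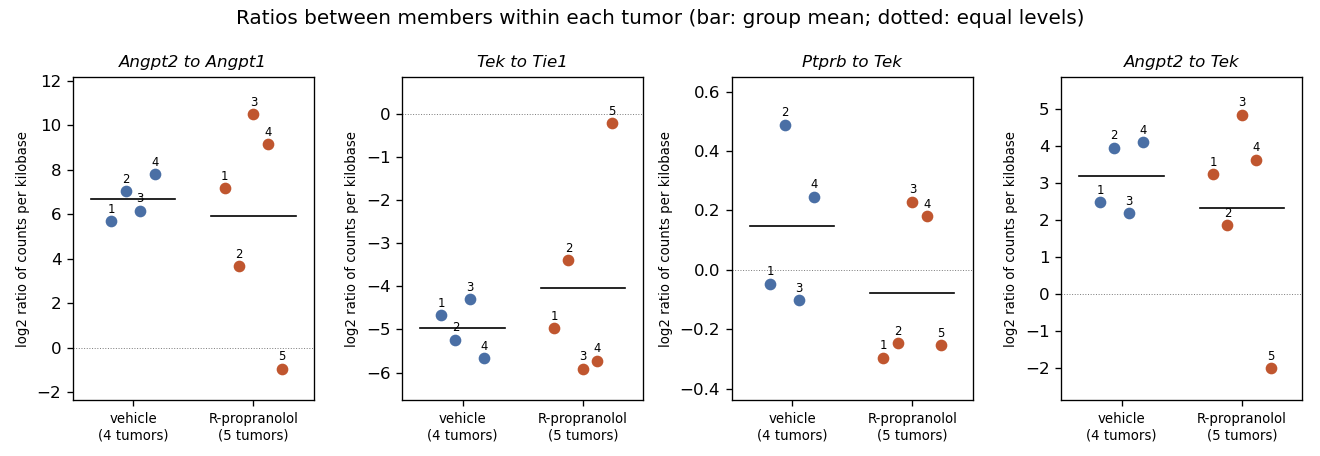
Log2 ratios of counts per kilobase of exon between members in each tumor, numbered by replicate, for 4 vehicle (blue) and 5 R-propranolol tumors (red), with bars at the group means and a dotted line at equal levels. R-propranolol replicate 5 lies apart for Angpt2 to Angpt1, Tek to Tie1 and Angpt2 to Tek, but not for Ptprb to Tek, whose vertical axis is much narrower.

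How the members varied together was described by correlations of log2 CPM over the 9 tumors, with 10 pairs computed among the 5 tested genes. Tek and Ptprb had a Pearson r of 0.986 (exact permutation p = 0.000143, adjusted 0.000478) and a Spearman rho of 0.933 (exact permutation p = 0.000750, adjusted 0.00250). Without R-propranolol replicates 2 and 5, the 2 tumors farthest from the median, r was 0.897. Angpt1 and Ptprb had an r of 0.961 (exact permutation p = 3.31e-05, adjusted 0.000331) and a rho of 0.967 (exact permutation p = 0.000165, adjusted 0.00165), with r = 0.807 without those tumors. Angpt1 and Tek had an r of 0.958 (exact permutation p = 0.000141, adjusted 0.000478) and a rho of 0.95 (exact permutation p = 0.000353, adjusted 0.00176), with r = 0.759 without them. The 3 relations thus stayed positive among the other 7 tumors. Of these, vehicle replicates 1 and 3 had the highest levels of all 3 genes. Their skeletal muscle sums were 471 and 458 CPM, against at most 18.2 in the rest, and their part in r was not tested. The adjustment covers the 10 pairs only, and the share of all gene pairs with so high an r was not computed. Replicates 2 and 5 were the 2 highest tumors for 18.9% of all genes tested, and Serpine2 reached an r of 0.997 with Tek. These values therefore do not show that the 3 relations are particular to the members.

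The abundant pair behaved differently. Angpt2 and Tie1 had an r of 0.878 over 9 tumors (exact permutation p = 0.0237, adjusted 0.0593) and a rho of 0.6 (exact permutation p = 0.0968, adjusted 0.241), but r was 0.318 without R-propranolol replicate 5 and -0.230 without replicates 3 and 5, so the relation rested on those tumors. The 6 pairs of Angpt2 or Tie1 with Angpt1, Tek or Ptprb had r between -0.797 and -0.688 over 9 tumors, none with an adjusted p under 0.05 (exact permutation), and r between -0.193 and 0.165 without replicate 5. The tumors in each correlation come from both treatments and differ in stromal content.

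The pattern between tumors was also read against all genes. The highest tumor was R-propranolol replicate 5 for Angpt1, Tek and Ptprb, as it was for 36.5% of all genes tested, and it was the lowest for Angpt2 and Tie1, as for 42.1%. R-propranolol replicates 2 and 5 were the 2 highest tumors for Angpt1, Tek and Ptprb, as for 18.9% of all genes. In multiples of the median of the other 8 tumors, replicate 5 held 59.5 for Angpt1, 10.8 for Tek and 8.57 for Ptprb, but 0.332 for Tie1 and 0.231 for Angpt2. In multiples of the median of the other 7, replicate 2 held 14.3 for Angpt1, 4.61 for Tek and 3.44 for Ptprb, and 1.09 for Tie1 and 1.29 for Angpt2. Tie1 and Angpt2 were therefore low in replicate 5 and near the other tumors in replicate 2, although the other 3 genes were high in both.

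Markers of several cell types moved with these genes. The 11 mural markers (pericytes and smooth muscle) summed to 516 CPM in R-propranolol replicate 2 and 556 in replicate 5, against 120 to 173 in the other 7 tumors, so the range was 120 to 173 in vehicle and 128 to 556 in R-propranolol tumors. The 7 lymphatic endothelial markers summed to 233 and 395 CPM against 18.6 to 43.2, of which Ccl21a had 0 counts in 9 of 9 tumors and Prox1 in 3 of 9. Pdpn and Lyve1 led that sum, with means of 43.9 and 43.3 CPM over 9 tumors. Flt4 followed at 4.82 CPM, while Reln (0.513), Prox1 (0.227) and Mmrn1 (0.0838) were near 0 and did not pass the count filter. The 10 macrophage markers summed to 2775 and 2934 CPM against 616 to 1869. Both tumors lay above the other 7 for 11 of the 15 pan-endothelial markers. Skeletal muscle and adipocyte genes, by contrast, were high in replicate 5 and not in replicate 2, where they summed to 9.53 and 275 CPM. The part of these cell types in the levels of Tek, Ptprb and Angpt1 was not tested.

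**Figure D4:**
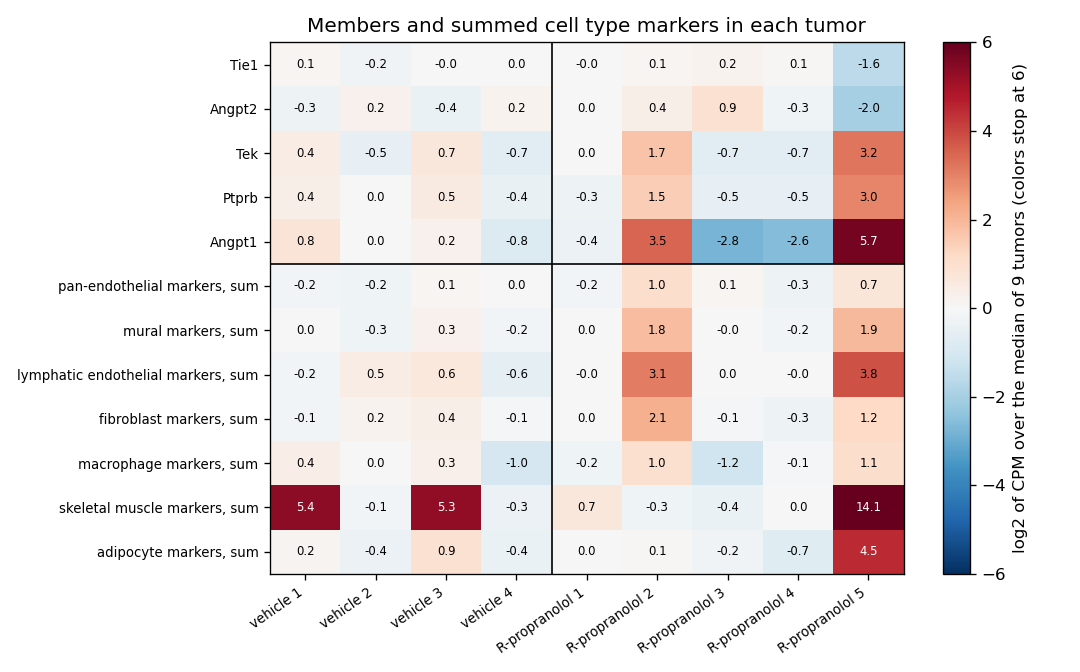
Log2 of CPM over the median of the 9 tumors for the 5 tested members (upper rows) and the summed CPM of cell type markers (lower rows), with red above and blue below the median. In R-propranolol replicates 2 and 5 Tek, Ptprb and Angpt1 were high together with the mural, lymphatic, fibroblast and pan-endothelial sums. Pdpn and Lyve1 led the lymphatic sum, and Col3a1, Col1a1 and Col1a2 led the fibroblast sum. Tie1 and Angpt2 were low in replicate 5 alone, the tumor with the muscle and adipocyte signal.

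Each member was also measured relative to a set of endothelial genes, as its log2 CPM minus the mean log2 CPM of the 15 pan-endothelial markers in the same tumor. Tie1 stood 3.90, 3.64, 3.26 and 3.78 above that mean in vehicle replicates 1 to 4. It stood 3.82, 2.16, 3.59, 4.22 and 0.76 above it in R-propranolol replicates 1 to 5. Relative to those markers Tie1 was thus lowest in replicates 5 and 2, and the difference of means was -0.73 (exact permutation p = 0.405, adjusted over 6 members p = 0.968). Tek, in contrast, ranged from -1.95 to -0.84 in vehicle tumors and from -2.37 to 0.48 in R-propranolol tumors, with replicate 2 at -1.29 inside the vehicle range. The difference was 0.20 for Tek (exact permutation p = 0.770), -0.03 for Ptprb (p = 0.968), 0.14 for Angpt1 (p = 0.944), 0.10 for Angpt4 (p = 0.810) and -0.67 for Angpt2 (p = 0.548), all 0.968 after adjustment over the 6. Ptprb stood at -0.03 in replicate 2, also inside the vehicle range of -0.20 to 0.61, and at 1.73 in replicate 5. Angpt1 stood at -2.95 in replicate 2 and -0.42 in replicate 5, above the vehicle range of -5.44 to -3.87 in both. As Angpt1 is made mainly by cells around the vessel, endothelial markers do not account for the amount of its source cells.

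The genes whose pattern over tumors was most like each member were named by the highest Pearson r of log2 CPM. For Tek these were Serpine2 (r = 0.997), Cyyr1 and Clmn over 9 tumors, and Lrg1 (r = 0.997), Cygb and Serpine2 over the 8 without R-propranolol replicate 5. For Ptprb they were Gpc1 (r = 0.995), Hspb8 and Aqp1 over 9 tumors, and Pdzd2 (r = 0.990), Itga11 and Syngr1 over 8. For Angpt1 they were Pamr1 (r = 0.990), Ncs1 and Ecm2 over 9, and Sytl2 (r = 0.979), Ecm2 and Pamr1 over 8, so that Pamr1 and Ecm2 were named by both. For Tie1 they were 4930579G18Rik (r = 0.997), Csnk1e and Ldb1 over 9, and 4930579G18Rik (r = 0.948), Csnk1e and 6820431F20Rik over 8. For Angpt2 they were Thbs1 (r = 0.984), Zfand2a and Slc2a1 over 9, and Zfand2a (r = 0.966), Hist1h1c and Phospho1 over 8. These are descriptions over tumors that share libraries and scaling, with no test.

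The wider pathway was read from 5 lists of genes, in which no gene passed the adjusted threshold, and the median log2 fold change of all genes tested was 0.03. Among 21 tested genes of Tie receptor signaling and its adaptors, 12 were higher and 9 lower in R-propranolol tumors, none at an unadjusted p below 0.05, with a median log2 fold change of 0.05. Tnip2, which encodes the NF-kappaB inhibitor ABIN-2 that binds Tek, was at 30.9 ± 1.25 CPM in vehicle and 38.3 ± 6.51 CPM in R-propranolol tumors (SD, log2 fold change 0.31, SE 0.14, edgeR adjusted p = 0.876). Without R-propranolol replicate 5 it was 0.33. In that fit the genes with an unadjusted p under 0.05 were 1 of 20 in this list (Tnip2), 1 of 18 in the FOXO list (Foxo3), 1 of 15 in the VE-PTP list (Rapgef2) and 0 in the other two, with Foxo3 and Rapgef2 named after their values were seen. The share over all genes was 3.78% (519 of 13743), and 0 of them passed the adjusted threshold (edgeR). The adaptor Grb14 had a log2 fold change of 4.85 (SE 2.15, edgeR adjusted p = 0.876) at 0.320 ± 0.276 and 9.43 ± 20.2 CPM, and it did not pass the count filter without replicate 2 or without replicate 5. The most abundant member, the adaptor Shc1, stood at 344 ± 53.6 and 282 ± 110 CPM (log2 fold change -0.29, edgeR adjusted p = 0.878, and -0.07 without replicate 5).

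FOXO transcription factors are held out of the nucleus when Tek and Akt are active, and their targets were counted as a second list. Of 18 tested genes 14 were higher and 4 lower, 2 of the higher ones with an unadjusted p under 0.05, against 2.01% of all genes in that direction, and the median log2 fold change was 0.40. Without R-propranolol replicate 5 the median was 0.14, with 15 of 18 higher. Without replicates 2 and 5 it was 0.06, with 12 higher and 6 lower, against a median of -0.003 over all genes. Those were the 2 highest tumors for 7 of the 18 genes, against 18.9% of all genes tested. The 2 genes with an unadjusted p under 0.05 were Pdk4, a mitochondrial kinase that restrains pyruvate oxidation (log2 fold change 6.29, SE 2.69, edgeR adjusted p = 0.876), and Klf2, a flow-induced endothelial factor (1.37, SE 0.59, edgeR adjusted p = 0.876). Pdk4 is also abundant in skeletal muscle, and its log2 fold change was -0.26 without replicate 5. For Klf2 it was 0.61 without that tumor. The most abundant gene of the list, Trib1, was at 121 ± 13.6 and 112 ± 28.9 CPM.

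Among 15 genes of VE-PTP partners and endothelial junctions, 9 were higher and 6 lower, none with an unadjusted p under 0.05, with a median log2 fold change of 0.16. Kdr, the main VEGF receptor of endothelium, was at 15.7 ± 5.65 CPM in vehicle and 40.8 ± 33.6 CPM in R-propranolol tumors (log2 fold change 1.38, SE 0.62, edgeR adjusted p = 0.876). It was 0.92 without replicate 5 and 0.09 in the lowest of the alternatives. Jup, the plakoglobin bound by VE-PTP and cadherins, was at 5.93 ± 2.15 and 29.5 ± 49.7 CPM (2.31, SE 1.11, edgeR adjusted p = 0.876, and 0.30 without replicate 5). Ctnnb1, encoding beta-catenin, was the most abundant at 948 ± 103 and 868 ± 229 CPM (log2 fold change -0.13, edgeR adjusted p = 0.884).

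Other ligands, integrins and proteases that act on the Tie receptors gave 8 higher and 7 lower of 15, none at an unadjusted p below 0.05, with a median of 0.01 on the log2 scale. Svep1, a matrix protein that binds Tie1, had the largest estimate among those named at 2.37 (SE 1.44, edgeR adjusted p = 0.876, and 1.501 without replicate 5), with 7.70 ± 5.04 CPM in vehicle and 39.8 ± 52.0 CPM in R-propranolol tumors. The integrin subunit Itgb5 had 0.97 (SE 0.55, edgeR adjusted p = 0.876, and 0.40 without replicate 5), and Itgb1, the most abundant gene of the list, had -0.04 (SE 0.15, edgeR adjusted p = 0.939). Of 14 transcription factors of the Tie and angiopoietin genes, 6 were higher and 8 lower, again with none under 0.05, and the median was -0.02. Klf4 was at 48.2 ± 10.3 and 81.0 ± 39.7 CPM (0.75, SE 0.33, edgeR adjusted p = 0.876, and 0.42 without replicate 5), and Erg, an ETS factor of endothelium, at 4.35 ± 0.777 and 10.1 ± 7.73 CPM (1.21, SE 0.56, edgeR adjusted p = 0.876, and 0.74 without replicate 2). Hif1a, the oxygen-regulated factor, was the most abundant at 345 ± 72.1 and 347 ± 151 CPM (log2 fold change 0.01, edgeR adjusted p = 0.991).

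Angpt2 is known as a hypoxia-induced gene of sprouting tip cells, and the summed levels of those lists are given beside it. The 11 tested hypoxia genes summed to 5090 to 8858 CPM in vehicle and 6623 to 10279 CPM in R-propranolol tumors, with 7421 in replicate 5, where Angpt2 was lowest. The 11 tip cell genes summed to 459 to 541 CPM in vehicle and 292 to 1172 CPM in R-propranolol tumors, with the lowest value in replicate 5 and the highest in replicate 2. Gene by gene, replicate 5 was the lowest of the 9 tumors for 7 of the 11 hypoxia genes and for 6 of the 11 tip cell genes, as it was for Angpt2 and for 42.1% of all genes. The hypoxia sum of replicate 5 lay inside the vehicle range, but a sum is led by its most abundant genes. Ldha, the most abundant of the 11, had a log2 fold change of 0.56 with all tumors and 0.08 without replicate 5. The part of Ldha in that sum was not tested.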

How the data were processed

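RNA was measured in 9 bEnd.3 allograft tumors, 4 vehicle and 5 R-propranolol. The authors extracted total RNA from frozen tumors, prepared NEBNext Ultra libraries and sequenced both ends of each fragment for 150 bases. Per the labels, STAR, HTSeq and build mm10 were used, and the deposited values are raw counts per gene symbol. No source used here gives the versions, the annotation or the strand setting. Reads with several places were left out by HTSeq and made up 3.46% to 3.99% of each library, but 7.86% in R-propranolol replicate 5.

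Genes were kept by filterByExpr (minimum count 10, minimum total 15), scaled by TMM and compared by the quasi-likelihood test of edgeR 4.0.16 in R 4.3.3, with Benjamini-Hochberg adjustment over 13901 genes. Angpt4 was taken from a fit without the filter. Exact permutation tests were two-sided, on log2 CPM with a prior count of 0.25. Exon lengths and places are from GENCODE M21 (GRCm38), in which 95.5% of the symbols had 1 place. The labels do not state that each tumor came from a separate mouse, so p-values measure only the spread between these samples. The test was checked on simulated counts.

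The members and gene lists were chosen with earlier results of these data known. Besides the 6 members, the named genes are, from each pathway list, the 2 with the smallest p and the one with the highest mean CPM, and for likeness the 3 with the highest r. Alternatives were other scalings (DESeq2 1.42.0 size factors, library size), other filters, DESeq2, limma-voom (limma 3.58.1) with and without quality weights, robust quasi-likelihood, each tumor left out, vehicle replicates 1 and 2 summed and a replicate block.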

Additional observations from a re-analysis of the deposited data

Results flagged for a closer look

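In groups of 4 or 5 tumors, the highest or lowest value was compared with the nearest of the others over the whole range. Dixon's 95% limit is passed by about 1 of 20 groups of independent normal values. Most values here are CPM, and all come from the same tumors, so that rate is no background for the count of flags. Over 56 groups tested, 8 values lay past the limit. Those in member levels were both in R-propranolol replicate 5: Angpt1 at 26.5 CPM, with the other treated tumors between 0.0719 and 5.56, and Tie1 at 60.0 CPM, with the others between 173 and 205. Relative to the pan-endothelial mean, Angpt4 in vehicle replicate 3 lay at -6.42 on the log2 scale, with the other vehicle tumors between -5.43 and -5.23, a value that rests on 5 counts.

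The remaining values belong to the libraries. R-propranolol replicate 5 had 7.86% of reads with several places (3.46% to 3.94% in the other treated tumors), a skeletal muscle sum of 204253 CPM (8.59 to 18.2) and an adipocyte sum of 5791 CPM (155 to 275). In R-propranolol replicate 2 the megakaryocyte and platelet markers summed to 334 CPM (58.1 to 135 in the other treated tumors). In vehicle replicate 2 the hepatocyte markers summed to 38.2 CPM (2.34 to 3.99 in the other vehicle tumors), and its members were not at either extreme except for the lowest Tie1 and the highest Angpt2 of the vehicle group. The causes were not tested.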

How the results depend on the processing

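No member passed an adjusted p of 0.05 under any alternative run. The count of genes at an adjusted p under 0.05 was 0 in every alternative except DESeq2, which called 2 (Dusp1 and Egr1, neither a member). The count at an unadjusted p under 0.05 was 320 and moved to 626 without a filter, 656 with DESeq2, 139 with limma-voom, 838 with quality weights, 100 with vehicle replicates 1 and 2 summed, 639 without R-propranolol replicates 2 and 5, and 103 to 737 with each tumor left out. The median log2 fold change of all genes turned to -0.10 with library size alone, -0.0032 with quality weights and -0.0033 without replicates 2 and 5.

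Some directions of the members turned. With quality weights the log2 fold change was -0.95 for Angpt1, -0.029 for Tek, 0.12 for Tie1 and -0.37 for Ptprb, and with limma-voom it was -0.049 for Angpt2. Under the replicate block it was -0.41 for Angpt1, 0.14 for Tie1 and -0.087 for Ptprb, with 0 genes at an adjusted p under 0.05. Between same-numbered tumors, deviations from the group mean had an r of -0.28, 0.09, -0.64 and 0.53. So few values cannot decide whether the numbers pair tumors, and the labels do not say. Without replicates 2 and 5 (added after seeing the data) it was -1.59 for Angpt1, -0.51 for Tek, 0.13 for Tie1 and -0.59 for Ptprb. With each tumor left out it ranged from -0.21 to 0.36 for Angpt2 and -0.17 to 0.13 for Tie1, and Angpt1, Tek and Ptprb kept their sign.

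For the difference of mean log2 CPM, leaving out both tumors gave -1.88 for Angpt1, 0.28 for Angpt2, -0.43 for Tek, 0.13 for Tie1 and -0.54 for Ptprb, and leaving out each tumor gave -0.56 to 1.54 for Angpt1, -0.39 to 0.32 for Angpt2, 0.11 to 1.11 for Tek, -0.29 to 0.14 for Tie1 and -0.071 to 0.81 for Ptprb. Relative to pan-endothelial genes it was -1.77 for Angpt1, 0.39 for Angpt2, -0.33 for Tek and 0.24 for Tie1 without both, and with each left out -0.89 to 0.93 for Angpt1, -1.01 to -0.01 for Angpt2, -0.18 to 0.39 for Angpt4, -0.22 to 0.49 for Tek, -1.06 to -0.19 for Tie1 and -0.40 to 0.19 for Ptprb, which was 0.045 with vehicle replicates 1 and 2 summed. The log2 ratios without both were 2.26 for Angpt2 to Angpt1, -0.57 for Tek to Tie1 and 0.72 for Angpt2 to Tek, and with each left out -1.91 to 0.95, -0.029 to 1.39 and -1.50 to 0.21. Ptprb to Tek kept its sign.

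Of the pathway genes, Hif1a turned to -0.10 with library size alone, -0.00020 without a filter, -0.079 with limma-voom, -0.012 with quality weights, -0.070 with vehicle replicates summed and -0.10 without replicates 2 and 5. Quality weights also gave -1.13 for Pdk4, 0.087 for Trib1, -0.050 for Jup, 0.10 for Ctnnb1 and -0.71 for Svep1, and the replicate block gave -0.58 for Pdk4, 0.051 for Trib1, 0.022 for Ctnnb1 and 0.034 for Itgb1. Without replicates 2 and 5 the values were 0.024 for Shc1, -1.85 for Pdk4, 0.055 for Trib1, -0.27 for Jup, 0.058 for Ctnnb1, -0.17 for Itgb5 and -1.53 for Svep1. With each tumor left out they ranged from -0.26 to 6.76 for Pdk4, -0.17 to 0.044 for Trib1, -0.20 to 0.020 for Ctnnb1, -0.11 to 0.033 for Itgb1 and -0.27 to 0.17 for Hif1a. Tnip2, Grb14, Klf2, Kdr, Klf4 and Erg kept their sign, with lowest values of 0.17, 0.046, 0.22, 0.09, 0.22 and 0.11 over the alternatives.

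In all, 628 values kept their direction and side of the threshold or, for counts of genes, stayed near the main value. Another 78 turned and 15, all counts of genes, moved. The alternatives share the same tumors, so these totals are a description. With 4 and 5 tumors and a pair that stood apart, the intervals of Tek, Ptprb and Angpt1 left differences of several-fold unresolved, and Angpt4 and Angpt1 were further limited by few counts. The causes of the turns were not tested beyond leaving those tumors out.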
